A study of Mus musculus with 2 samples.

Results

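The genes described here are 7 E2F transcription factors, E2f1, E2f2, E2f3, E2f4, E2f5, E2f6 and E2f8, and the 3 pocket proteins Rb1, Rbl1 and Rbl2, which are 10 of the 18193 genes named singly on the array. They were chosen by name: every probe set whose single platform symbol belonged to one of them was taken, which gave 23 probe sets. The study measured mRNA of mouse splenic antigen-presenting cells (APCs) on 2 Affymetrix arrays, 1 per condition. The P25 sample came from APCs kept overnight with P25, a peptide of a mycobacterial secreted antigen, and with CD4+ T cells whose transgenic receptor recognises that peptide. The medium sample came from APCs kept with the same T cells and medium alone. Both used spleens of wild-type female C57BL/6 mice aged 10 weeks, and in both the APCs were enriched after culture and RNA of 3 experiments was mixed. How the APCs were enriched is not given in the sources used here. A single array per condition leaves no spread between replicates, so every comparison below is a ratio of the P25 signal over the medium signal with no p-value.

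E2F factors bind the promoters of genes for DNA replication and cell division, and pocket proteins hold them in check. In resting cells RBL2 (p130) sits with E2F4 or E2F5 in the DREAM complex, which keeps cell cycle genes off, while RB1 binds the activating factors E2F1, E2F2 and E2F3. Cyclin-dependent kinases phosphorylate the pocket proteins at the entry into the cycle, the activators are released, and genes such as E2f1 and Rbl1 are themselves E2F targets. Resting lymphocytes and macrophages leave quiescence through this switch when they are stimulated to divide.

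A signal is the linear MAS5 intensity of a probe set, and signals under a floor of 10.3, the 40th percentile over both arrays, were set to that floor. Probe sets above the floor on 1 array or both counted as measured, and a gene was represented by its brightest measured probe set. Of the 23 probe sets 20 were measured and 18 were above the floor on both arrays. The disagreement between the 2 brightest probe sets of one gene served as the only gauge of technical error, with an SD of the log2 ratio difference of 0.58 over 5293 genes (0.46 where the second had a signal of 100 or more and 0.68 where it was dimmer). It does not cover culture, animals or hybridisation. In bulk RNA, fewer cells of a type and less RNA per cell cannot be told apart.

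E2f1 and E2f8 were at least 2-fold higher with P25, Rbl2 was at least 2-fold lower, and the remaining 7 members were within 2-fold. The 2 higher members are 20% of 10, against 9.4% of the 12990 measured genes, and the 1 lower member is 10% against 7.27%. With 10 genes, a single one is 10% of the group, so these shares lie within about 1 gene of the background. The median log2 ratio of the members was 0.66, against 0.02 for all measured genes, and 8 of the 10 had a log2 ratio above 0, as had 51.4% of all genes. Counted by probe set, 3 of 20 (15%) were at least 2-fold higher, against 8.39% of 29549 measured probe sets, and 2 (10%) were at least 2-fold lower, against 8.37%. The scale of the arrays moves such counts: with both brought to one median or to one spike-in level, the median log2 ratio of all genes came to 0.15 and 0.16, and 12.4% and 12.5% of genes were higher against 5.12% and 5.0% lower. On those scales E2f3 joined the higher members, with log2 ratios of 1.06 and 1.07.

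**Figure D1:**
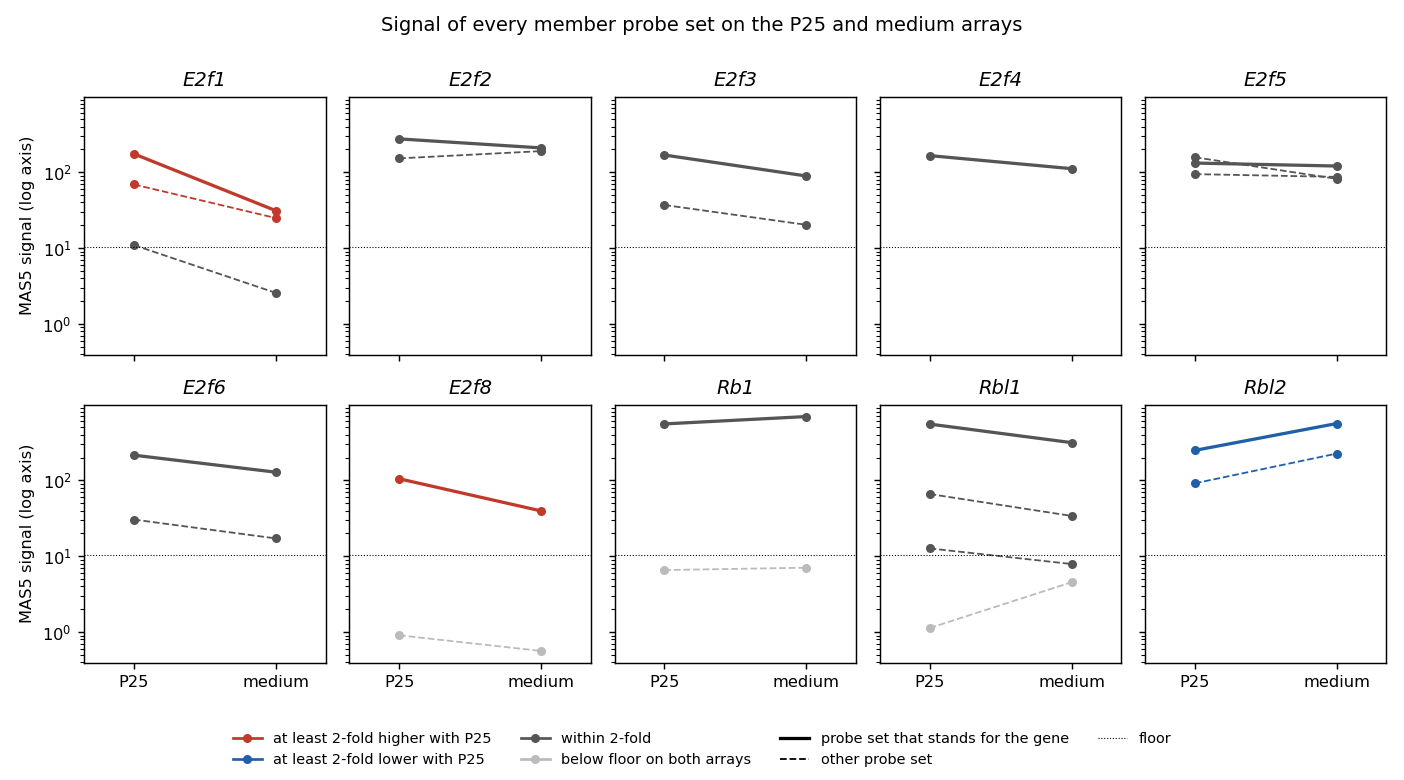
MAS5 signal (log axis) of all 23 probe sets of the 10 genes, with P25 on the left and medium on the right of each panel. Solid lines are the probe sets that stand for the gene, dashed lines the others, and the dotted line is the floor of 10.3. Red lines (2 for E2f1, 1 for E2f8) are at least 2-fold higher with P25 and blue lines (2 for Rbl2) at least 2-fold lower.

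E2f1, the activator best known for driving entry into S phase, had the largest ratio of the group. Its brightest probe set, 1431875_a_at, had a signal of 175 with P25 and 31.1 with medium, which is 5.61-fold or 2.49 on the log2 scale. The second, 1417878_at, had 69.0 with P25 and 24.9 with medium, or 2.77-fold higher. The dimmest, 1447840_x_at, whose suffix marks probes that may bind other transcripts, had 11.0 with P25 and 2.57 with medium, so the ratio, at least 1.06-fold, is bounded by the floor. Both probe sets above the floor on each array were therefore higher with P25, though their log2 ratios of 2.49 and 1.47 lie apart by more than the 0.58 typical of such pairs. Of 12990 genes, 59 (0.454%) had a higher ratio than E2f1. Because its medium signal was dim, the size of the ratio follows the floor: with the floor at the 75th percentile (122) it was 0.52 on the log2 scale, under 2-fold.

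The other activators had smaller ratios. E2f3, which acts with E2f1 in the proliferation of many cell types, had signals of 169 with P25 and 89.3 with medium on 1434564_at, and 37.0 and 20.3 on 1427462_at. The ratios were 1.89-fold and 1.82-fold, so its probe sets gave nearly one value just under 2-fold. E2f2, an activator whose loss in mice lets T cells proliferate too readily, had signals of 275 with P25 and 209 with medium on its brighter probe set 1455790_at, and 152 and 190 on 1436434_at. Its log2 ratios of 0.39 and -0.32 had opposite signs, and no direction can be given for it. E2f2 was the only member whose measured probe sets fell on both sides of 0.

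Of the E2Fs that repress together with pocket proteins, neither passed 2-fold. E2f4, the main E2F of the DREAM complex, had 166 with P25 and 112 with medium on its single probe set 1451480_at, a ratio of 1.49-fold. E2f5, its close relative, had 132 with P25 and 121 with medium on the probe set that stands for it (1460207_s_at), and 94.5 and 86.8 on 1447625_at, both at about 1.09-fold. The remaining probe set, 1417444_at, had 158 with P25 and 81.9 with medium, or 1.92-fold. The value for E2f5 therefore depends on the probe set, and it came to 0.94 on the log2 scale when probe sets with the _s_at suffix, which can bind transcripts of several genes, were left out.

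Of the E2Fs that bind no pocket protein, E2f8 was past 2-fold and E2f6 was not. E2f8 encodes an atypical factor that binds DNA without TFDP1 or TFDP2 as partner and represses E2F targets late in the cycle. E2f8 had 105 with P25 and 39.6 with medium on 1436186_at, or 2.65-fold, and 4.32% of genes had a higher ratio. Its other probe set, 1444319_at, was below the floor on both arrays (0.909 with P25 and 0.564 with medium) and gives no ratio. The related E2f7, which pairs with E2F8, had a log2 ratio of 1.69 on its only probe set (50.5 with P25 and 15.7 with medium), but 0.39 with the floor at the 60th percentile. E2f6, which represses through Polycomb proteins, had 215 with P25 and 128 with medium on 1448835_at and 30.5 and 17.2 on 1437914_at. These are 1.68-fold and 1.77-fold, close to each other and under 2-fold.

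The pocket proteins went in different directions. Rbl2, which encodes p130, the pocket protein of resting cells, had 249 with P25 and 563 with medium on 1425981_a_at, and 91.6 and 226 on 1418146_a_at. It was 2.26-fold and 2.47-fold lower with P25, and its log2 ratios of -1.18 and -1.30 differed by 0.13, well under the typical 0.58. Of all measured genes, 4.57% had a lower ratio than Rbl2. The call held on every scale and floor tried, with log2 ratios between -1.24 and -1.03.

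Rbl1, which encodes p107, the pocket protein that accumulates in cycling cells, had 554 with P25 and 315 with medium on 1424156_at, and 66.2 and 34.1 on 1425166_at. These are 1.76-fold and 1.94-fold higher, under the threshold on both. The probe set 1432604_at was above the floor with P25 alone (12.7 with P25 and 7.91 with medium, at least 1.23-fold), and 1454293_at was below the floor on both arrays (1.13 with P25 and 4.55 with medium). The log2 ratio of Rbl1 was higher than that of Rbl2 by 1.99, a difference of ratios and not of levels, since signals of different probe sets are not comparable. Rb1, the retinoblastoma gene itself, had 556 with P25 and 696 with medium on 1417850_at, a log2 ratio of -0.32 that lies within the typical disagreement of probe sets. Its other probe set, 1444400_at, was below the floor on both arrays (6.59 with P25 and 7.07 with medium).

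**Figure D2:**
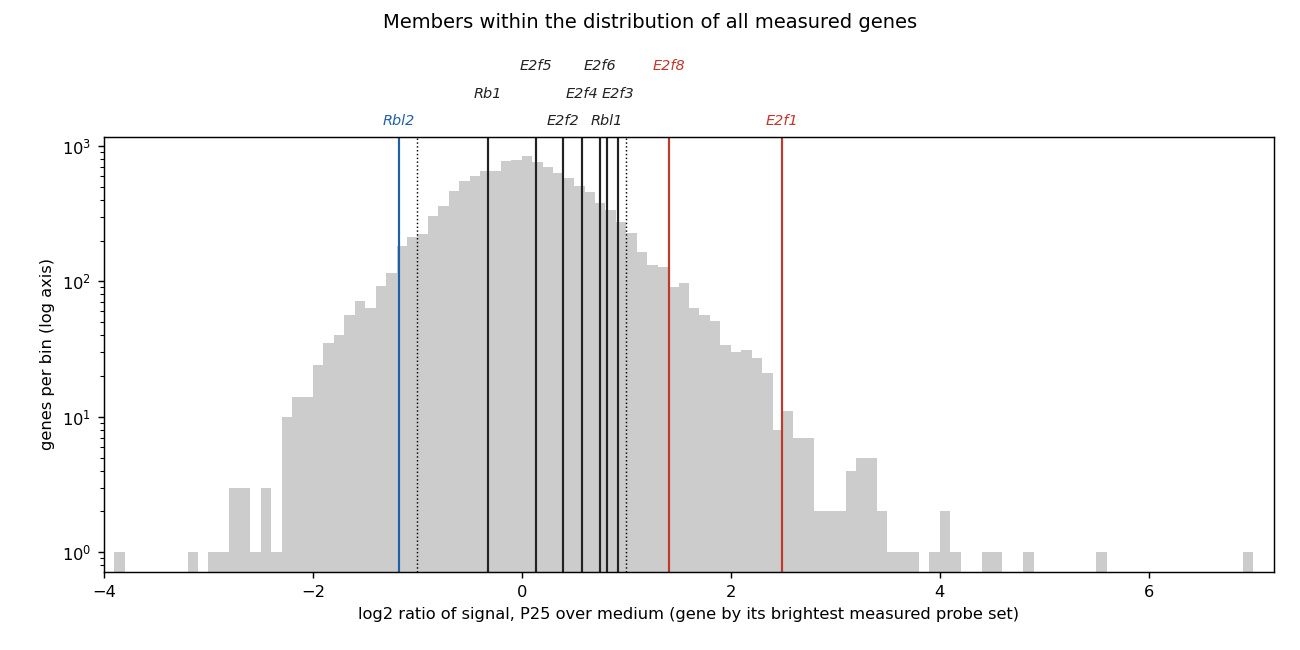
Number of genes (log axis) by log2 ratio of P25 over medium for all 12990 measured genes, in bins of equal width, with the 10 members as vertical lines. Dotted lines mark 2-fold. E2f1 at 2.49 lies in the upper tail, E2f8 at 1.41 and Rbl2 at -1.18 lie past 2-fold on either side, and the other 7 lie between -0.32 and 0.92.

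The promoters bear on a group whose genes are in part E2F targets, so the upstream sequence of 5 members that differ in their ratio is shown. The sequences are from RefSeq (GRCm38.p6), whose promoter table held 7 of the 10 members and none of Rb1, E2f4 and E2f5. Each is the run of 150 bases before the listed transcription start, read 5′ to 3′ on the strand of the gene. That of E2f1 encodes part of the E2F1 protein itself, so it lies inside the gene and is not its main promoter. Capitals mark an E2F site (TTTCGCGC, TTTGGCGC, TTTCCCGC or TTTGCCGC) or a CHR element (cell cycle genes homology region), which the DREAM complex binds (TTTGAA), on either strand.
E2f1, chr2:154569427-154569576, minus strand: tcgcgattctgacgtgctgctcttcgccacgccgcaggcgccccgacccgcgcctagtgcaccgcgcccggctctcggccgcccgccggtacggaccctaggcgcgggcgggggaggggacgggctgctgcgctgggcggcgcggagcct
E2f3, chr13:29986064-29986213, minus strand: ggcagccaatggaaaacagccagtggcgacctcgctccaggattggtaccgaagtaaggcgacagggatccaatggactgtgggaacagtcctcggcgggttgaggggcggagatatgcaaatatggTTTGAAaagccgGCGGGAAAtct
E2f8, chr7:48881597-48881746, minus strand: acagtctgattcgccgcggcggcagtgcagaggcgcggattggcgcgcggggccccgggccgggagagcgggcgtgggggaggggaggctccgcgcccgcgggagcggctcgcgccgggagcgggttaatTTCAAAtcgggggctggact
Rbl1, chr2:157204535-157204684, minus strand: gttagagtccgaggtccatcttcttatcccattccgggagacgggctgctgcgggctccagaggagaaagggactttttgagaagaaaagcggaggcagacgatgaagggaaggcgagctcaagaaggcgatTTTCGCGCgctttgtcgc
Rbl2, chr8:91069907-91070056, plus strand: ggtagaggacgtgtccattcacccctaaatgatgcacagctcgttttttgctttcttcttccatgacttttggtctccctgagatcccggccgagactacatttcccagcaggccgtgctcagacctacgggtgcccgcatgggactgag

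Rbl1 had the E2F site TTTCGCGC at positions -18 to -11 from the start. E2f3 had TTTCCCGC on the opposite strand at -11 to -4, beside a CHR element at -23 to -18 that it did not overlap. The second of the 2 windows of E2f3, not shown, held neither an E2F site nor a CHR element. E2f2, not shown, had TTTGGCGC inside its transcript at 40 to 47 in one of its 2 windows and a CHR element in the other. E2f8 had a CHR element on the opposite strand at -20 to -15, and that of Rbl2 lay at -201 to -196, upstream of the stretch shown. Over the 300 bases of each window, from 250 before to 50 after the start, 3 of the 7 members held an E2F site and 4 a CHR element, against 2.60% and 20.2% of 27025 genes. E2f6 held neither set of letters in this window. E2f1, counted among the 7, also held neither, but its window lies inside the gene, so its main promoter was not searched. A match to letters is no measured binding.

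The known targets of the E2F factors were higher with P25 as a group. In a list of 38 genes of the G1/S transition and DNA replication, 36 were measured. Of these, 31 (86.1%) were at least 2-fold higher, against 9.4% of all genes. None was at least 2-fold lower, against 7.27%. The median of the list was 2.86-fold. With the signal floor at the 75th percentile, 24 of 34 measured genes of this list were at least 2-fold higher, against 9.46% of all genes. Cdc6, which loads the replicative helicase, led with 489 with P25 and 48.3 with medium (10.1-fold), followed by the S phase cyclin Ccne2 with 228 and 37.9 (6.02-fold). At the low end of the list were the replication licensing factor Cdt1, with 1504 and 1622, and the single-strand binding subunit Rpa1, with 2903 and 2762. Their log2 ratios were -0.11 and 0.07. Of the 31 genes of this list with a promoter window 13 (41.9%) held one of the E2F sites spelled out above, against 2.60% of all genes. The list holds known E2F targets and was chosen with earlier results of these data known, so its shares are descriptions and not tests.

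A list of 25 genes of G2 and mitosis, which are bound by DREAM and later by MYBL2 and FOXM1, had 24 measured. Of these, 16 (66.7%) were past 2-fold in favour of P25, against 9.4% of all genes. None was past it in the other direction, against 7.27%, and the list median was 2.32-fold. With the signal floor at the 75th percentile, 8 of 19 measured genes of this list were at least 2-fold higher, against 9.46% of all genes. Birc5, the survivin gene, had 507 with P25 and 112 with medium (4.51-fold), and Cdk1, the mitotic kinase, had 431 and 96.6 (4.46-fold). The lowest were Foxm1 itself (49.8 with P25 and 45.4 with medium) and the phosphatase gene Cdc25c (16.5 and 14.4), both dim, with log2 ratios of 0.14 and 0.19. The 3 probe sets of Foxm1 ran from 0.14 to 0.93, with a median of 0.48. In this list 14 of 19 genes with a window (73.7%) held the CHR element, against 20.2% of all genes, and 1 held an E2F site. This list of known DREAM targets was chosen in the same way, so its shares are no tests either. The medians of the target lists, 1.52 and 1.21 on the log2 scale, lay above the member median of 0.66, and E2f1 was the 1 member above both.

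**Figure D3:**
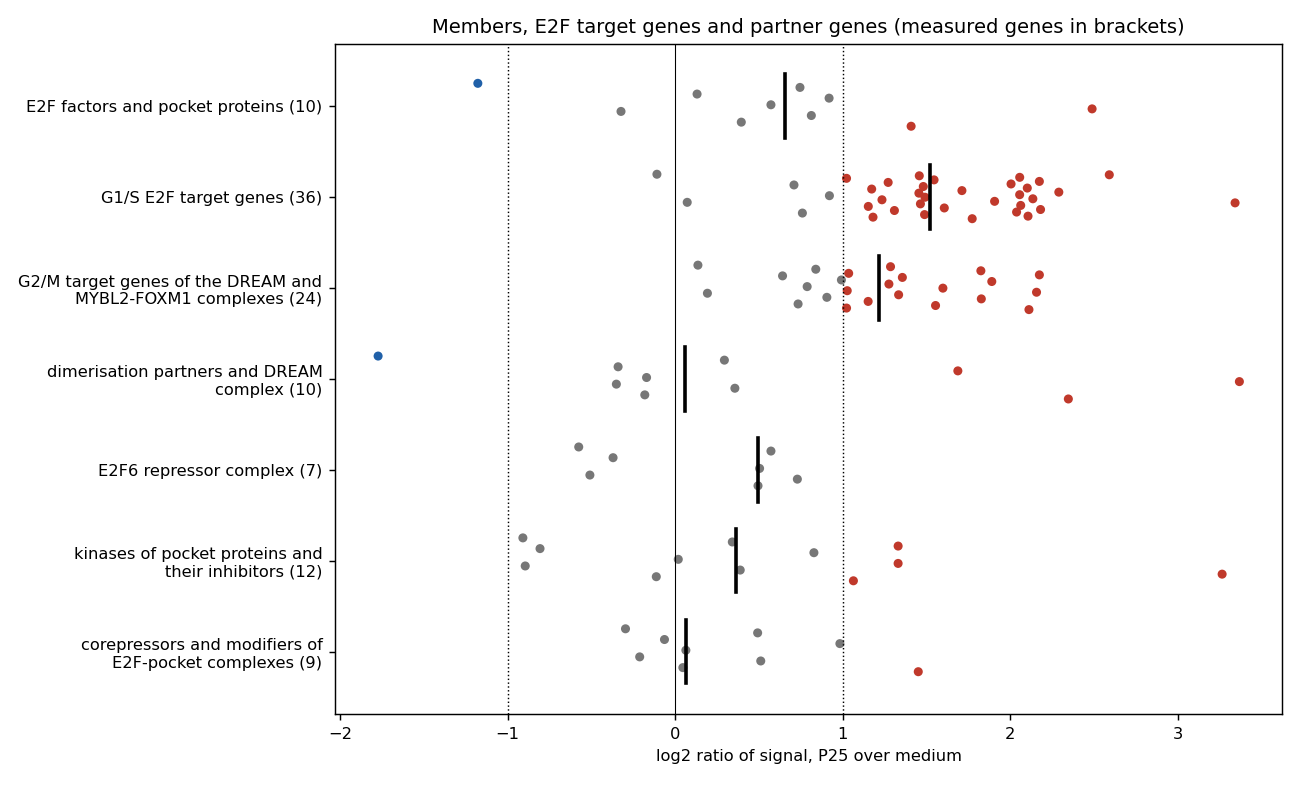
Log2 ratio of P25 over medium of each measured gene, in rows for the 10 members, the target genes and the partner lists, with black bars for list medians and dotted lines at 2-fold. Red points are at least 2-fold higher and blue points at least 2-fold lower. The G1/S row (31 of 36) and the G2/M row (16 of 24) have most of their points in red.

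Among 10 genes of the dimerisation partners and the DREAM complex, 3 (30%) were at least 2-fold higher and 1 (10%) at least 2-fold lower, against 9.4% and 7.27% of all genes, so the share of lower ones was near that of all genes. Mybl2, which replaces the pocket protein on the shared MuvB core when cells divide, had 312 with P25 and 30.3 with medium, or 10.3-fold. Its log2 ratio of 3.37 fell to 1.36 with the floor at the 75th percentile. Tfdp1, the main DNA-binding partner of the E2Fs, had 1054 with P25 and 207 with medium, or 5.09-fold, on its single probe set, and E2f7 is given above. Tfdp2, the alternative partner, had 43.6 with P25 and 149 with medium on its brightest probe set, or 3.42-fold lower, while its other 3 probe sets had log2 ratios from -0.93 to -0.21, so its call rests on 1 of 4. The MuvB core genes Lin9, Lin37, Lin52, Lin54 and Rbbp4 were within 2-fold, with log2 ratios from -0.34 to 0.36, and Mybl1, dim on both arrays, had -0.35. The median log2 ratio of this list was 0.06.

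Of 12 measured genes for kinases that phosphorylate pocket proteins and for their inhibitors, 4 passed 2-fold on the higher side, against 9.4% of all genes, and none on the lower side, against 7.27%. The cyclin gene Ccnd2 had 5556 with P25 and 578 with medium (9.61-fold), Cdk6 854 and 340 (2.52-fold), Cdk4 1024 and 407 (2.51-fold) and the inhibitor gene Cdkn1a 88.4 and 42.3 (2.09-fold). The other probe set of Cdkn1a had a log2 ratio of 0.35, and the median over both was 0.71, under 2-fold, so its call depends on the probe set. The lowest were the inhibitor gene Cdkn2d, with 231 and 433, and the cyclin gene Ccnd1, with 37.9 and 70.4, at log2 ratios of -0.91 and -0.89. The 3 probe sets of Ccnd1 ran from -2.16 to -0.89, with a median of -1.43, which is past 2-fold on the lower side. Those of the cyclin gene Ccnd3 ran from -1.37 to 0.39, with a median of -0.99, so its sign turned with the choice of probe set, and the absence of lower genes in this list depends on that choice.

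Markers of cell types that the samples could hold moved on the same arrays. Of all measured genes, 51.4% had a log2 ratio above 0, 9.4% were at least 2-fold higher and 7.27% at least 2-fold lower. Signals were lower with P25 for all 9 measured neutrophil markers, 8 of 9 of macrophages and monocytes and 12 of 13 of B cells. They were at least 2-fold lower for 7 (77.8%), 6 (66.7%) and 3 (23.1%) of them. Their summed signals were 6973 with P25 and 12913 with medium for neutrophils, 534 and 1299 for macrophages and monocytes, and 26829 and 38789 for B cells, the brightest list. In the macrophage and monocyte list, Mertk, C1qb and Ccr2 had P25 signals under the floor, so their ratios are bounds. The log2 ratios of the Ccr2 probe sets ran from -2.03 to -0.13. The 10 measured markers of dendritic cells went both ways, 4 of them past 2-fold lower and 2 past 2-fold higher (Zbtb46 and Ly75), with sums of 753 with P25 and 985 with medium. The labelled APCs thus showed B cell, myeloid and dendritic cell markers in both conditions, while Xcr1, C1qa and C1qc were below the floor. The part of these shifts in the ratios of E2F and pocket protein genes was not tested.

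T cells were part of both cultures, so their markers were counted as well. Cd3e, Cd3d, Cd4 and Cd6, 4 of the 13 T cell markers present on the array, stayed under the floor in both conditions. The 9 measured had a summed signal of 183 with P25 and 191 with medium and a median log2 ratio of 0.02. None was at least 2-fold higher, against 9.4% of all genes. Cd247, Trat1 and Thy1 were above the floor with P25 alone, at 12.3, 13.7 and 10.5. Their ratios are bounds that could not reach 2-fold, so this count is in part set by the floor. Cd28 (22.5 with P25 and 56.0 with medium) was at least 2-fold lower, 11.1% of the measured list against 7.27% of all genes. The other probe set of Cd28 had a log2 ratio of -0.61, so this call depends on the probe set. Cd3g had the highest ratio, 1.95-fold, with 21.6 and 11.1. Erythroid genes, whose precursors divide in the spleen, were near the floor: 4 of 7 were below it on both arrays and the other 3 summed to 54.8 with P25 and 58.1 with medium. NK cell markers likewise summed to 52.5 with P25 and 51.6 with medium over 4 measured genes.

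**Figure D4:**
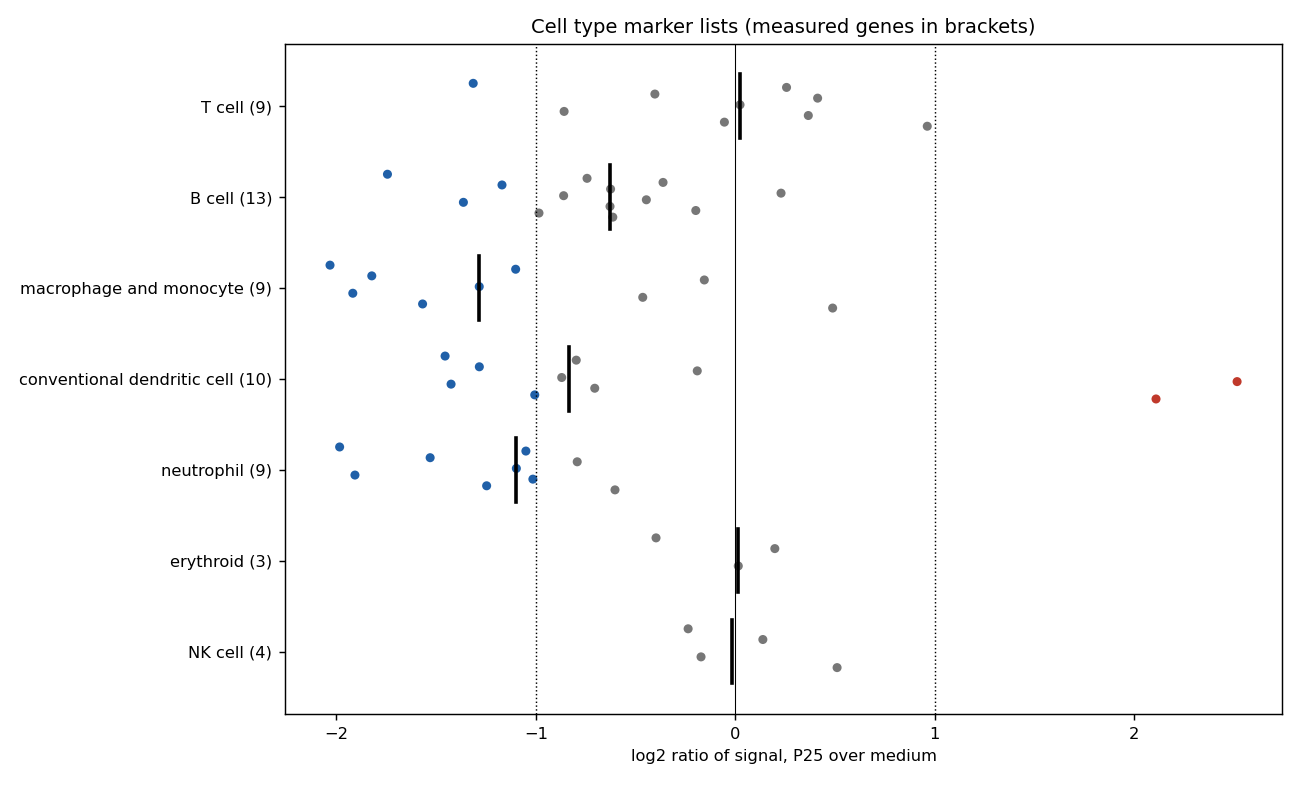
Log2 ratio of P25 over medium of each measured marker gene by cell type, with black bars for list medians and dotted lines at 2-fold. The neutrophil, macrophage and B cell rows lie mostly below 0, with medians of -1.10, -1.28 and -0.63, and the T cell, erythroid and NK cell rows have medians near 0.

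**Figure D5:**
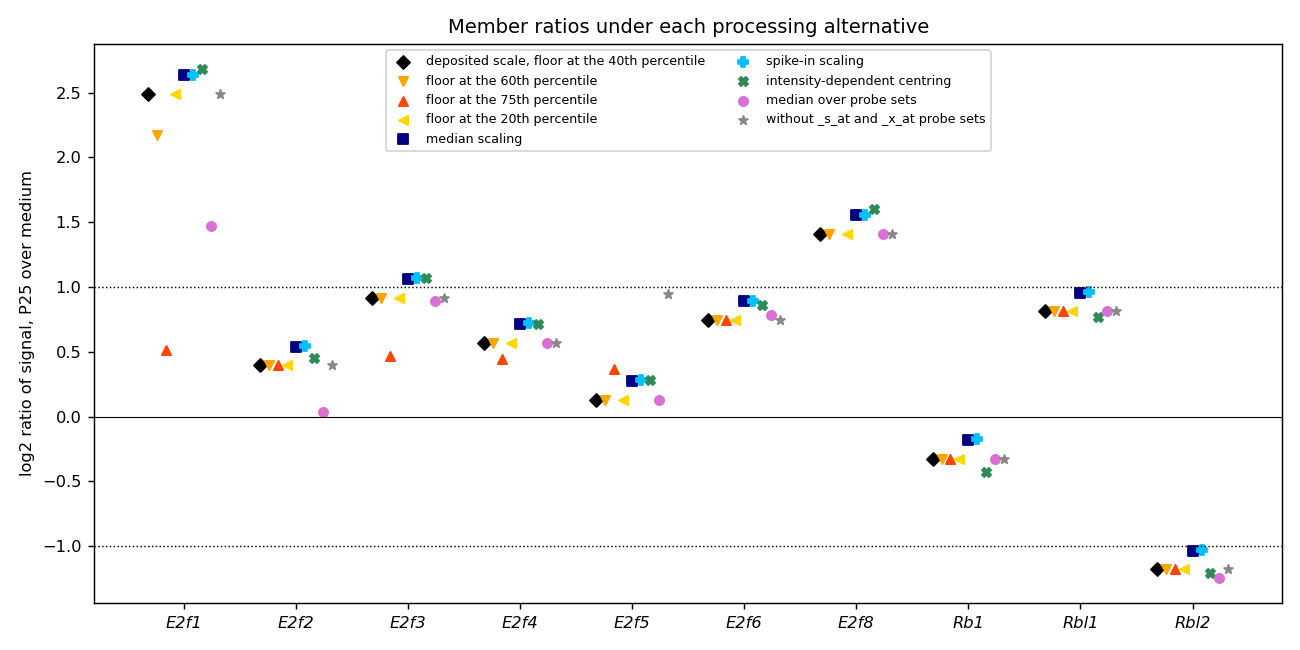
Log2 ratio of P25 over medium of each member (vertical axis) on the deposited scale and under 8 processing alternatives (symbols). All members kept the sign of their ratio in each setting that measured them. E2f1 ran from 0.52 to 2.68 and Rbl2 from -1.24 to -1.03, while E2f8 had no value with the floor at the 75th percentile.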

How the data were processed

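The 2 samples, P25 and medium, were each hybridised to a single-colour Affymetrix array, with RNA of 3 experiments mixed before labelling, per the series' design text. Per the submitters' processing notes, the authors computed the deposited intensity values by MAS5 in GCOS. Software versions and the scaling target were not stated. MAS5 takes the mismatch signal into account, which makes dim probe sets noisy, and it scales an array as a whole. The median signals of the 45037 probe sets other than controls were 18.0 with P25 and 18.4 with medium. Slide and scan dates were not used here, so batch and treatment cannot be told apart.

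Groups came from the treatment label. Probe sets (34945 with 1 symbol, 932 with several, 9160 with none) were named from the platform annotation, and symbols were updated by Entrez number through RefSeq (GRCm38.p6), where 34741 matched. Those with 1 symbol were used. Signals under the 40th percentile of both arrays were set to it, and log2 ratios were taken with no pseudocount. A call is a ratio of at least 2-fold. No test was possible with 1 array per condition. The members and gene lists were chosen with earlier results of these data known. All members were named, as were the 2 highest and the 2 lowest genes of each list of targets and partners and genes of small counts. The alternatives were other floors, scalings, probe set choices and a 1.5-fold threshold. Calls and the motif search were first tested on simulated data with known answers. Computations used Python 3.11.15, pandas 2.3.3 and statsmodels 0.14.6.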

Additional observations from a re-analysis of the deposited data

How the results depend on the processing

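No paired analysis was possible because each condition has 1 array and the labels carry no replicate numbers, and leaving out a replicate was not possible for the same reason. No called value changed sign under any of the 9 alternatives, and 76 of 79 values of member genes moved by less than the SD of 0.58 between probe sets of one gene. The exceptions were E2f1 with the 75th percentile floor (0.52) and as the median over its probe sets (1.47), and E2f5 without _s_at and _x_at probe sets (0.94). With the 75th percentile floor 0 of 9 measured members and 0 of 12 measured member probe sets were at least 2-fold higher. The shares over all were 9.46% of genes and 9.12% of probe sets. At this floor 1 member probe set was lower, against 5.24% of all probe sets. Higher genes numbered 24 of 34 in the G1/S list and 8 of 19 in the G2/M list. A floor of 122 lies above the medium signals of E2f1 and both signals of E2f8, so these ratios are cut by construction. Probe sets at least 2-fold higher numbered 7 of 20 under both median and spike-in scaling and 6 with intensity-dependent centring, against 11.0%, 11.1% and 9.15% of all measured probe sets. With a 1.5-fold threshold 5 members and 10 member probe sets were higher, against 21.0% of all genes and 18.9% of all measured probe sets. Over all genes, 56.4% of calls were higher ones on the deposited scale, against 70.7% after median scaling and 71.4% after the spike-in one. With 1 array per condition and MAS5 signals, ratios of probe sets near the floor are bounds, and ratios within 0.58 of 0 on the log2 scale cannot be told from the disagreement between probe sets.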

Other observations

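Other partners of E2F and pocket proteins differed less than their target genes. Of 9 measured genes for corepressors and modifiers that work with E2F and pocket protein complexes, 1 (11.1%) was at least 2-fold higher. That share is near the 9.4% of all genes. The gene was Skp2, a ubiquitin ligase subunit that is an E2F target and marks the inhibitor p27 for destruction. It had 175 with P25 and 64.1 with medium (2.73-fold). The histone deacetylase gene Hdac2 followed with 750.5 and 380 (1.98-fold). The lowest were the corepressor gene Sin3a, with 277 and 340, and the demethylase gene Kdm5a, with 371 and 429, at log2 ratios of -0.30 and -0.21. The median of the list was 0.06.

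The Polycomb complex that E2F6 recruits had 7 measured genes. Against 9.4% and 7.27% of all genes, none of them was at least 2-fold higher or lower on the probe set that stands for it. Their log2 ratios ran from -0.58 for Ring1 and -0.51 for Mga to 0.57 for Pcgf6 and 0.73 for Wdr5, with a median of 0.49, against 0.74 for E2f6. Single probe sets went further, with Mga between -0.77 and 1.07 and Pcgf6 between -0.52 and 1.5. Those of Rnf2 ran from -0.37 to 0.72, so none of these genes has a settled direction. The 2 probe sets of Wdr5 ran from 0.73 to 1.31, with a median of 1.02, past 2-fold. The absence of higher genes in this list therefore depends on the choice of probe set.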
